A study of Mus musculus with 9 samples.

Results

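The genes described here are the IL-1 family ligands, receptors and antagonists, chosen by name: Il1a, Il1b, Il1rn, Il1r1, Il1r2, Il1rap, Il18, Il18bp, Il33 and Il1rl1. Of these 10 genes, 9 were found by symbol among the 18049 genes of the deposited expression table, and Il1r2, the decoy receptor, had no row there and was not analysed here. The samples were 9 clones of primary cells grown from tumors of the pancreas (MPC) of WTg mice, and RNA-sequencing was performed on 1 library per clone. WTg mice are crosses of EL1-Luc/EL1-TAg with CAG-Mettl3. The elastase I promoter, active in acinar cells, drives luciferase and the SV40 large T antigen, and the ubiquitous CAG promoter drives Mettl3. The tumors were minced and the attached cells passaged, and colonies were then picked with cloning cylinders. Each library is taken to be 1 such colony, called a clone here. Growth of each colony from a single cell was not tested. All 9 clones carried both transgenes and formed a single group without a treated or wild-type counterpart. The treatment label reads none, although a protocol label names NMS-P937 at 80 nM for 24 h. The number of mice behind the 9 clones is not given in the sources used here, so the spread between clones may include clones of the same animal.

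The IL-1 family is a set of cytokines that start and shape inflammation. Il1a and Il1b encode IL-1α and IL-1β, which bind the receptor IL-1R1 and then recruit the accessory chain IL-1RAcP, encoded by Il1rap. Il1rn encodes the receptor antagonist IL-1Ra, which occupies IL-1R1 without recruiting the accessory chain. IL-18 is held in check by a secreted binding protein (Il18bp), and IL-33 is a nuclear cytokine that acts through ST2 (Il1rl1) together with the same accessory chain. In pancreatic tumors, IL-1 from myeloid or tumor cells is known to act on fibroblasts, which answer with IL-6 and chemokines.

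The column names of the table fall under 3 prefixes whose meaning is not stated. MET had 1 library (MET 11A), Whe10 had 4 (10A, 11A, 7A and 8A) and Whe3 had 4 (11A, 12A, 5A and 7A). Levels are given as normalized counts, the deposited log2 values taken back to the linear scale after removal of an offset of 4, and they were not divided by gene length, so the levels of different genes are not ranked here. The depth was 12198032 to 20453933 reads, lowest in MET 11A, and 3 reads corresponded to 3.79 to 6.56 normalized counts. The label gives the cells as fibroblasts. Fibroblast markers were above 3 reads in all 9 libraries for 13 of 14 genes, and so were all 16 macrophage markers, with summed levels of 363562 to 1000510 for the fibroblast list and 584984 to 919012 for the macrophage list. Of the 7 epithelial markers, Epcam was at 0 in every library and 3 were above 3 reads in all 9. The summed level of the epithelial list was 27.5 to 331. In a bulk library, fewer cells of a type and less RNA per cell cannot be told apart. Whe3 5A stood apart in pancreatic acinar markers, with a sum of 2415 normalized counts against 144 to 396 in the other 8 libraries, and results that rest on it are given with and without it.

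On the mouse genome (GRCm38.p6, RefSeq), Il1rn, Il1a and Il1b lie on chromosome 2, Il1rn at 24336860 to 24351491 and the neighbouring pair Il1a and Il1b at 129299609 to 129310186 and 129364569 to 129371164. The receptor genes Il1r2, Il1r1, Il1rl2, Il1rl1, Il18r1 and Il18rap follow each other on chromosome 1 between 40084692 and 40551707. Il18bp, Il18, Il1rap and Il33 are on chromosomes 7, 9, 16 and 19. All 10 genes had promoter windows in RefSeq, 15 in all, each from 250 bases before to 50 after a start site. The windows of Il1b and Il1rn are shown because the levels of this agonist and its antagonist ran in opposite directions across the clones. The first line is Il1b (chr2:129371090-129371389, minus strand) and the others are the most upstream and the most downstream of the 3 Il1rn windows (chr2:24336610-24336909 and chr2:24345121-24345420, plus strand). Capitals mark matches, on either strand, to the TATA box letters TATAAA and to the letters of AP-1 sites, TGANTCA.
Il1b: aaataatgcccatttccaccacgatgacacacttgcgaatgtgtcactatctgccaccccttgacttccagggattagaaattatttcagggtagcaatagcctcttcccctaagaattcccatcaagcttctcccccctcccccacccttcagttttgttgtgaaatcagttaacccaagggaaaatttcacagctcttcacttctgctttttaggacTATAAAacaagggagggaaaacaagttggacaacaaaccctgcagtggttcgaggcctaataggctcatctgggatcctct
Il1rn upstream: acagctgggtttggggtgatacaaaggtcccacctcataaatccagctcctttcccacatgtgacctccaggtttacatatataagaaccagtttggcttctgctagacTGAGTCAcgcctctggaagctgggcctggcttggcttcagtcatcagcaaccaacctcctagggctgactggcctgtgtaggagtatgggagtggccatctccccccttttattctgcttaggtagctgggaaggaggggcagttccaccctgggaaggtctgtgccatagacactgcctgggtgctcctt
Il1rn downstream: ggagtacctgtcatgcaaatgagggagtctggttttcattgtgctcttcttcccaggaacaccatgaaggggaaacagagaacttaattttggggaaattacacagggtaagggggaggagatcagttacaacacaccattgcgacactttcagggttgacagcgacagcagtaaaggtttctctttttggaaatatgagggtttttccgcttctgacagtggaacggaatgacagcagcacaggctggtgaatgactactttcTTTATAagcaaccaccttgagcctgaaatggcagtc
The Il1b window held TATAAA with its first base at -31 from the start site, and the downstream Il1rn window held it on the reverse strand at 15. TGANTCA was found at -141 in the upstream Il1rn window and not in the Il1b window. Among all 32851 RefSeq promoters of this length, 13.6% held TATAAA and 7.81% held TGANTCA on either strand. Of the 15 windows of the 10 genes, 6 held TATAAA (Il1a, Il1b, Il1rn, Il18 and Il33) and 2 held TGANTCA (Il1a and Il1rn). The TATAAA matches included -175 on the reverse strand for Il18, and -203 and -29 for Il33. GGGNNNNNCC, the core of NF-kB sites, was found in 5 of the 15 windows (Il1r1, Il1rn and Il1rap) and in 50.8% of all promoters. TTGCNNAA (C/EBP) was found in 4 of the 15 windows (Il1r1, Il1rl1, Il18bp and Il33) and in 10.8% of all promoters. GAGGAA (PU.1) was found in 3 of the 15 windows (Il1rl1, Il1a and Il33) and in 28.3% of all promoters. Overlaps between motifs, and matches of a palindromic motif on both strands, were not removed, and a match is a description of letters only.

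Il1a, which encodes an agonist that is active without cleavage, was near the limit of detection. It was at 4.38 normalized counts in MET 11A, at 11.5, 7.12, 21.7 and 0 in Whe10 10A, 11A, 7A and 8A, and at 14.2, 12.5, 6.99 and 4.43 in Whe3 11A, 12A, 5A and 7A, which corresponds to 0 to 15 reads. It exceeded 3 reads in 6 of 9 libraries. The mean was 9.20 ± 6.49 normalized counts (SD, n = 9), and the libraries of the prefixes overlapped throughout. The coefficient of variation was 70.6%, against 39.7% from read counting alone. For Whe10 8A, the exact Poisson 95% interval of 0 reads reached 4.65 normalized counts, and that of the highest library, Whe10 7A, ran from 12.1 to 35.8. These intervals cover counting error only.

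Il1b, the agonist that is made as a precursor and cut by caspase-1, was above 3 reads in all 9 libraries at 10 to 48 reads. Its level was 24.1 normalized counts in MET 11A, 61.1, 34.2, 56.4 and 49.2 in the Whe10 libraries (order as above), and 14.2, 18.7, 54.6 and 14.8 in the Whe3 libraries. All Whe10 libraries lay above 3 of the Whe3 libraries, and Whe3 5A lay among the Whe10 values. The mean over the 9 clones was 36.4 ± 19.1 (SD, n = 9), and the highest library was 4.29-fold above the lowest.

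Il1rn, the antagonist, showed the reverse order. It was at 370 normalized counts in MET 11A, at 224, 229, 314 and 223 in the Whe10 libraries, and at 459, 568, 227 and 712 in the Whe3 libraries. Again Whe3 5A sat with the Whe10 libraries, and the other 3 Whe3 libraries were the 3 highest of the 9. The mean was 370 ± 177 (SD, n = 9), and its coefficient of variation of 47.9% compares with 6.38% from read counting alone.

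The ratio of Il1rn to Il1b, both in normalized counts, was taken within each library. It was 15.4 in MET 11A, 3.67, 6.71, 5.56 and 4.54 in the Whe10 libraries, and 32.3, 30.3, 4.15 and 48.2 in the Whe3 libraries, a 13.1-fold range. Since neither gene was divided by its length, the ratio serves only to compare libraries. Of the 8 relations examined across the clones, this was the one that passed the adjustment. Log2 Il1rn and log2 Il1b gave Pearson's r = -0.874 (exact permutation test over all 362880 pairings, two-sided, p = 0.0040, Benjamini-Hochberg adjusted p = 0.032) and Spearman's rho = -0.783 (exact permutation p = 0.017, adjusted p = 0.10). Without MET 11A, r was -0.876 (exact permutation adjusted p = 0.046). With the 2 clones farthest from the Il1rn median left out, Whe3 7A and 12A, r was -0.820 over 7 clones (exact permutation adjusted p = 0.19). After centring within Whe10 and within Whe3, which leaves 8 libraries and 576 orders, r was -0.759 (exact permutation adjusted p = 0.65), and without Whe3 5A it was -0.858 (adjusted p = 0.092). The relation kept its sign in all of these settings and did not pass the adjustment in the last 3.

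**Figure D1:**
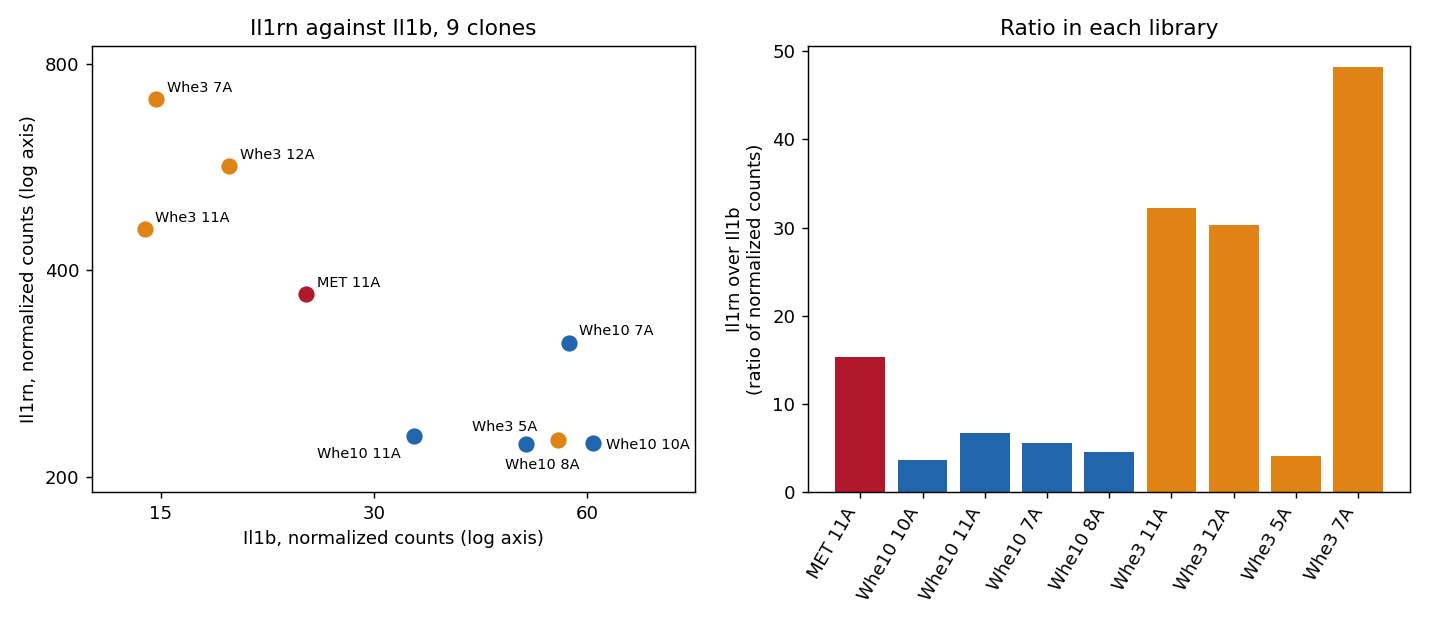
Il1rn against Il1b in normalized counts on log axes (left, 1 point per library) and the ratio of Il1rn to Il1b in each library (right, bars from 0), coloured by prefix (MET red, Whe10 blue, Whe3 orange). Whe3 11A, 12A and 7A have ratios of 32.3, 30.3 and 48.2, while Whe3 5A, at 4.15, lies among the 4 Whe10 libraries at 3.67 to 6.71.

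Il1r1, the signalling receptor for both agonists, varied most among the receptor chains relative to genes of a like level. Its levels were 374 normalized counts in MET 11A, 181, 229, 227 and 162 in the Whe10 libraries, and 570, 300, 368 and 1057 in the Whe3 libraries. Every Whe3 library and MET 11A lay above every Whe10 library, and Whe3 7A was 1.85-fold above the next highest. The mean was 385 ± 282 (SD, n = 9), and 301 ± 135 (SD, n = 8) without Whe3 7A. The SD of its log2 values stood at the 94.3rd percentile of genes within 2-fold of its mean level. Il1rap, the accessory chain shared by IL-1 and IL-33 receptors, was steadier, at 490 in MET 11A, 326, 376, 301 and 310 in the Whe10 libraries and 467, 400, 280 and 425 in the Whe3 libraries. Its mean was 375 ± 75.8 (SD, n = 9) with a coefficient of variation of 20.2%, the smallest of the 9 genes. The prefixes overlapped for Il1rap.

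Il18, a cytokine that like IL-1β is matured by caspase-1, was lowest in MET 11A at 48.1 normalized counts. It was at 174, 147, 171 and 111 in the Whe10 libraries and at 118, 78.0, 140 and 98.9 in the Whe3 libraries, with a mean of 121 ± 42.0 (SD, n = 9). Il18bp, its secreted inhibitor, was also lowest in MET 11A, at 76.6, and reached 176, 145, 278 and 177 in the Whe10 libraries against 136, 106, 123 and 118 in the Whe3 libraries. All 4 Whe10 libraries were above all 4 Whe3 libraries for Il18bp, while Il18 overlapped. The mean of Il18bp was 148 ± 58.0 (SD, n = 9). The ratio of Il18bp to Il18 stayed between 0.880 and 1.63, a 1.85-fold range, which is narrower than the range of Il1rn over Il1b.

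Il33, an alarmin of stromal, epithelial and mesothelial cells, had its highest level by far in 1 library. It was at 153 normalized counts in Whe3 11A (118 reads, exact Poisson 95% interval 126 to 183). The other libraries had 6.56 in MET 11A, 11.5, 31.3, 18.8 and 12.6 in Whe10, and 21.9, 1.40 and 1.48 in Whe3 12A, 5A and 7A, the last pair resting on 1 read each. The mean was 28.7 ± 47.5 (SD, n = 9) with Whe3 11A and 13.2 ± 10.4 (SD, n = 8) without it, and 6 of 9 libraries exceeded 3 reads. The summed mesothelial markers (Msln, Upk3b, Wt1, Lrrn4 and Upk1b) were at 35.0 in MET 11A, at 1130, 343, 2086 and 1857 in the Whe10 libraries, and at 1166, 59.3, 9.79 and 2.95 in the Whe3 libraries. None of these 5 genes was above 3 reads in all 9 libraries. The pair of libraries with the least Il33 also had the lowest mesothelial sums, and Whe3 11A, with the most Il33, had a sum below those of Whe10 7A and 8A. The part of mesothelial RNA in the Il33 levels was not tested.

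Il1rl1, the IL-33 receptor ST2, was highest in MET 11A at 54.7 normalized counts, 2.06-fold above the next library. It was at 15.3, 9.97, 5.79 and 11.4 in the Whe10 libraries and at 23.3, 26.5, 15.4 and 23.6 in the Whe3 libraries, or 4 to 25 reads. Whe10 and Whe3 did not overlap, but only 15.3 against 15.4 separated them. The mean was 20.7 ± 14.5 (SD, n = 9), and 16.4 ± 7.41 (SD, n = 8) without MET 11A. ST2 is a marker of mast cells and some lymphocytes, and the markers of those cells that the table lists, Kit and Cd4, summed to 0 to 15.9 and 0 to 87.8 normalized counts. MET 11A held 4.38 of Kit and 2.19 of Cd4.

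**Figure D2:**
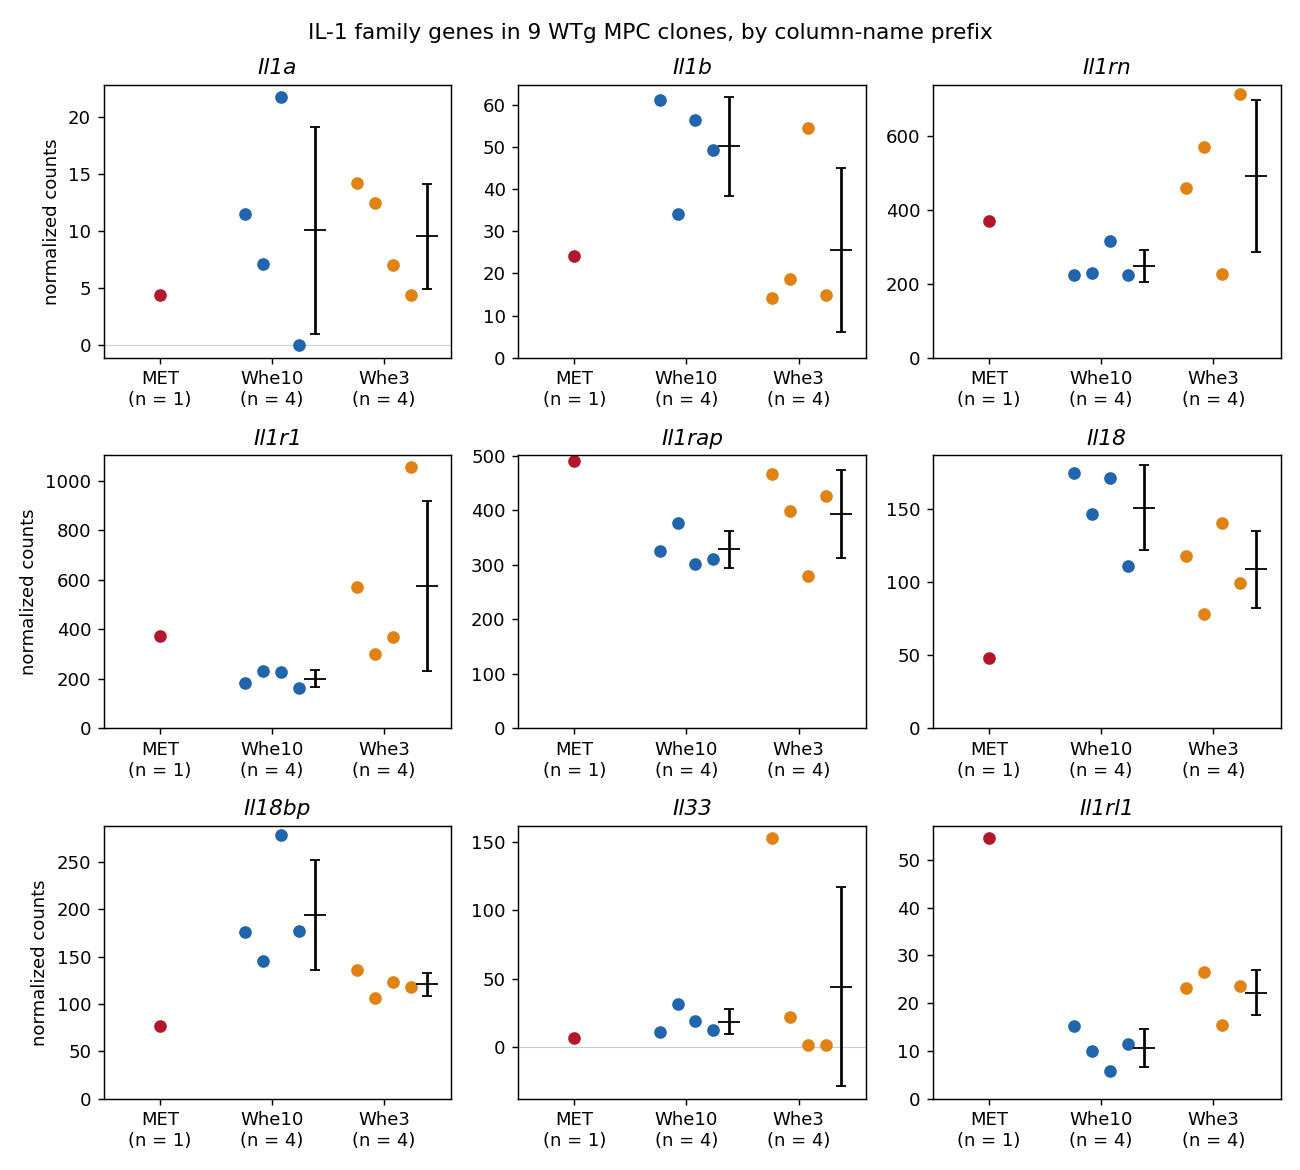
Normalized counts of the 9 IL-1 family genes in each library (1 point per library), grouped by column-name prefix, with the mean and SD of the 4 Whe10 and the 4 Whe3 libraries as black bars; each panel has its own linear axis. Il1r1 at 1057 in Whe3 7A, Il33 at 153 in Whe3 11A and Il1rl1 at 54.7 in MET 11A stand far above the other libraries.

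Whether the genes differed between Whe10 and Whe3 was tested with limma over the 16962 genes averaging 1 normalized count or more, with Whe10 minus Whe3 as the difference. The prefix is not a treatment. Xist, made from the inactive X, was at 31700 normalized counts on average in Whe10 and at 3.81 in Whe3, and Ddx3y, on the Y, was at 0 and 2569, so the prefix and the sex of the mice cannot be told apart. None of the 9 genes was called (0 of 9 at an adjusted p under 0.05), where 0.171% of all tested genes were called, 12 higher in Whe10 and 17 higher in Whe3. With voom on the recovered reads the count was again 0 of 9, against 0.13% of all genes. At an unadjusted p under 0.05 there were 5 of 9 (Il1b, Il1rn, Il1r1, Il18bp and Il1rl1), against 18.6% of all genes. The libraries of Whe10 and Whe3 did not overlap for 3 of 9 (Il1r1, Il18bp and Il1rl1), against 9.49% of all genes.

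The largest of the differences that reached an unadjusted p under 0.05 was that of Il1r1, at -1.36 on the log2 scale (95% CI -2.17 to -0.54, limma adjusted p = 0.16), from means of 200 ± 33.9 in Whe10 and 574 ± 342 in Whe3 (SD, n = 4 each). Il1b, at 50.2 ± 11.8 and 25.6 ± 19.4, differed by 1.15 (0.15 to 2.14, limma adjusted p = 0.23). Il1rn, at 248 ± 44.3 and 491 ± 205, differed by -0.88 (-1.62 to -0.15, limma adjusted p = 0.22). Agonist and antagonist thus had differences of opposite sign. Il18bp differed by 0.64 (0.18 to 1.10, limma adjusted p = 0.18), with 194 ± 57.9 against 121 ± 12.3, and Il1rl1 by -1.04 (-1.83 to -0.26, limma adjusted p = 0.19), with 10.6 ± 3.91 against 22.2 ± 4.78. The intervals of Il1rap (-0.61 to 0.13) and Il18 (-0.03 to 0.98) were narrower than those of Il1a (-2.56 to 1.58) and Il33 (-2.26 to 3.45), and all 4 included 0.

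Leaving out Whe3 5A changed these calls. Il1b then differed by 1.58 (95% CI 0.92 to 2.23, limma adjusted p = 0.048) and Il1rn by -1.22 (-1.65 to -0.78, limma adjusted p = 0.039), so that 2 of 9 were called, while 242 genes, or 1.43% of all tested, were called in the same fit. The Il1rn difference corresponds to 580 normalized counts on average in the other 3 Whe3 libraries, and the Il1b difference to 15.9. Il1r1 remained uncalled (-1.51, limma adjusted p = 0.096), as did the other 6, of which Il1rap was at -0.39 (-0.65 to -0.14, limma adjusted p = 0.11) and Il18 at 0.61 (0.10 to 1.12, limma adjusted p = 0.17). Whe3 5A held the acinar markers, and in it Cx3cr1, a macrophage receptor, was at 5213 normalized counts against 1167 to 1647 in the other Whe3 libraries and 4583 to 7176 in Whe10. Csf3r, the G-CSF receptor, was at 610 in Whe3 5A, at 184 to 484 in the other Whe3 libraries and at 656 to 1009 in Whe10. Over all 16 macrophage markers, the sum was 609721 in Whe3 5A, 754217 to 865668 in Whe10 and 584984 to 919012 across Whe3. S100a8, listed with Csf3r as a neutrophil marker, was at 11.2 in Whe3 5A. It was at 12.7 to 24.6 in Whe10 and at 2.95 to 24.6 across Whe3. The part of acinar, macrophage or neutrophil RNA in the levels of Il1b and Il1rn was not tested.

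**Figure D3:**
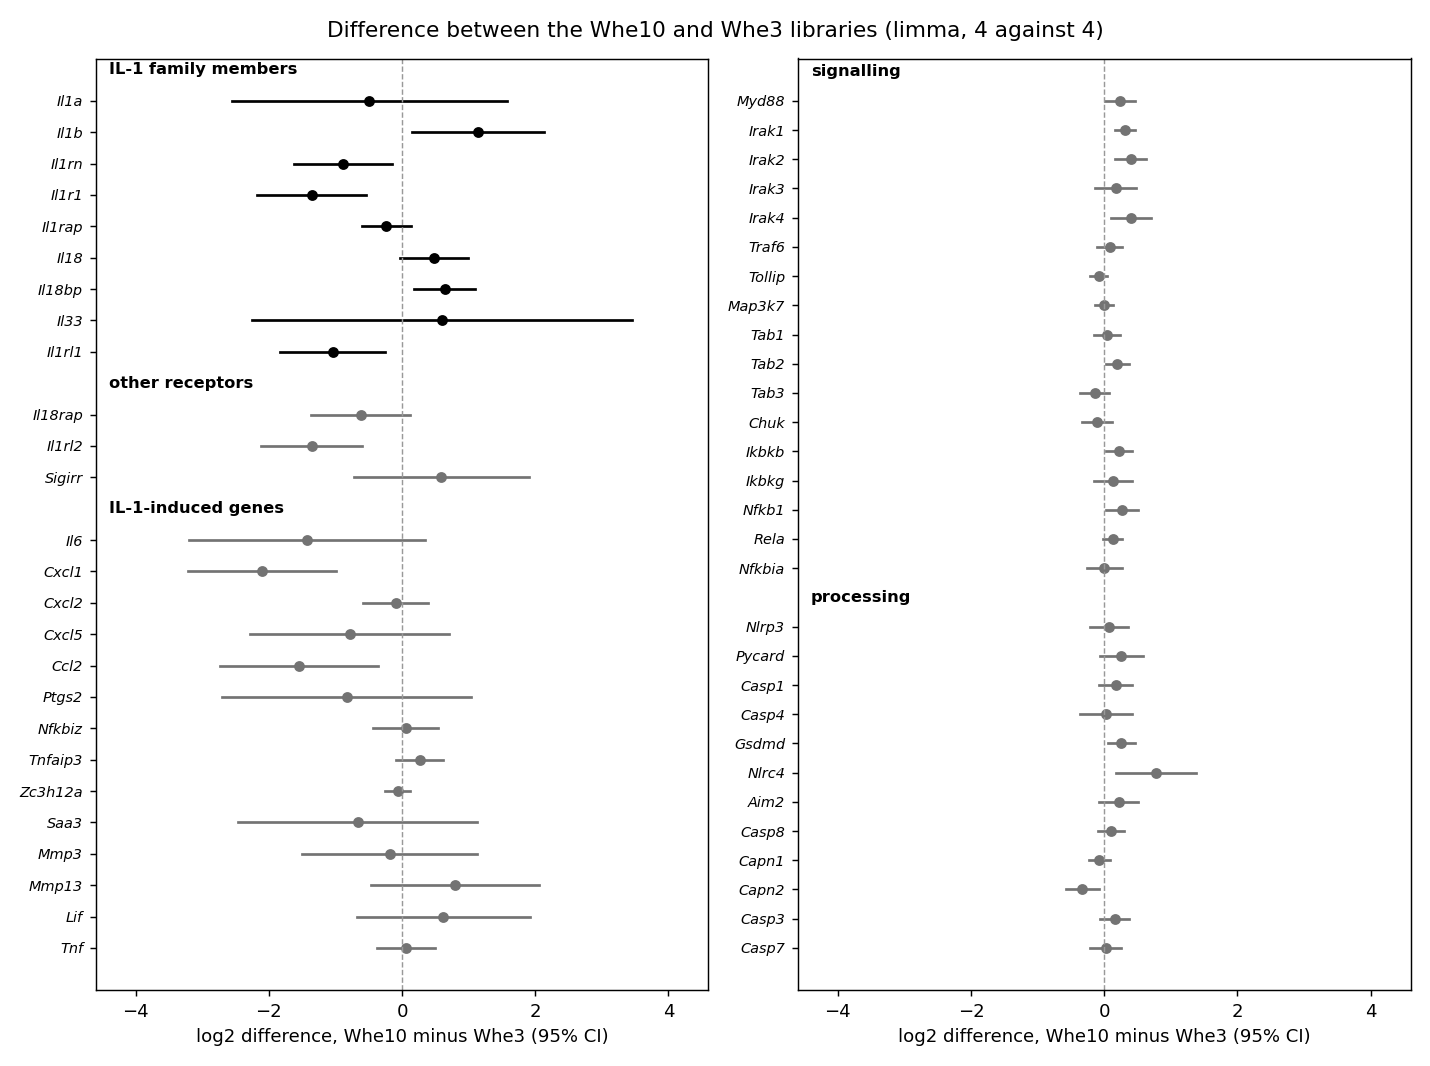
Log2 difference between Whe10 and Whe3 libraries (points, limma, 4 against 4) with 95% confidence intervals (lines) for the 9 IL-1 family genes (black) and for the other listed receptors, IL-1-induced genes, signalling and processing genes (grey). The intervals of Il1b and Il18bp lie above 0 and those of Il1rn, Il1r1 and Il1rl1 below it, and none of the plotted genes passed the adjustment over all genes.

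Among the other receptors and ligands of the family, 15 symbols (older names included) were searched and 3 were listed, Il18rap, Il1rl2 and Sigirr. None was called, and 1 of 3 had an unadjusted limma p under 0.05, against 18.6% of all genes. This was Il1rl2, the IL-36 receptor, encoded next to Il1rl1, at 114 ± 51.9 in Whe10 and 275 ± 58.7 in Whe3 (SD, n = 4 each), a difference of -1.36 (limma adjusted p = 0.15). Il18rap, the accessory chain of the IL-18 receptor, was at 271 normalized counts in MET 11A and at 25.2 to 65.6 in the other 8 libraries. MET 11A thus had the lowest Il18 and the highest Il18rap. Sigirr, an inhibitory receptor, exceeded 3 reads in 1 library, MET 11A.

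Genes that carry the signal from IL-1R1 to NF-kB were detected in full, with 17 of 17 above 3 reads in all 9 libraries. None was called, and 7 of 17 had an unadjusted p under 0.05, against 18.6% of all genes, all with higher values in Whe10: the adaptor Myd88, the kinases Irak1, Irak2 and Irak4, Tab2, Ikbkb and Nfkb1. Irak1 differed by 0.32, Irak2 by 0.40 and Irak4 by 0.41, and the median over the 17 genes was 0.13, against 0.02 over all genes tested. All 16 macrophage markers also had higher fitted values in Whe10, with a median of 0.34 and 9 of 16 at an unadjusted p under 0.05, and their part in the signalling genes was not tested. Of the 12 genes that process IL-1β and IL-18, all were detected in all libraries and none was called. At an unadjusted p under 0.05 there were 3 of 12, a share near the 18.6% of all genes: Nlrc4 (0.78) and the pore-forming Gsdmd (0.26), higher in Whe10, and Capn2 (-0.33), a calpain, higher in Whe3. Casp1, the shared protease of IL-1β and IL-18, differed by 0.18 (limma adjusted p = 0.41), and the sensor Nlrp3 by 0.08 (limma adjusted p = 0.76).

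Genes known to be induced by IL-1 were given by 16 genes, of which 14 passed the filter and 12 were above 3 reads in every library, while Lcn2 and Cxcl5 never were. None was called, and the median difference was -0.14. At an unadjusted limma p under 0.05 there were 2 of 14, Cxcl1 and Ccl2, against 18.6% of all genes. Cxcl1, a neutrophil chemokine, was at 8.45 normalized counts on average in Whe10 and 40.4 in Whe3 (-2.10, limma adjusted p = 0.14). Ccl2, a monocyte chemokine, was at 615, 994, 715 and 612 in the Whe10 libraries, at 2694, 3638, 616 and 3279 in the Whe3 libraries and at 2611 in MET 11A. Ccl2 therefore followed the split seen for Il1rn, with Whe3 5A among the Whe10 values. It differed by -1.55 (limma adjusted p = 0.20), and without Whe3 5A it was 1 of 14 tested genes of the list to be called (-2.14, limma adjusted p = 0.011), against 1.43% of all genes in that fit. Il6 was at 153 ± 102 in Whe10 and 395 ± 215 in Whe3 (SD, n = 4 each), a difference of -1.43 with a 95% CI of -3.20 to 0.34. The Il6 difference was -2.06 (-3.60 to -0.52, limma adjusted p = 0.14) without Whe3 5A and -0.81 (-2.38 to 0.75, limma adjusted p = 0.62) without Whe10 7A. Tnf differed by 0.06 (-0.37 to 0.50). Ptgs2, the inducible cyclooxygenase, was highest at 11188 normalized counts in Whe3 11A, the library with the most Il33.

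**Figure D4:**
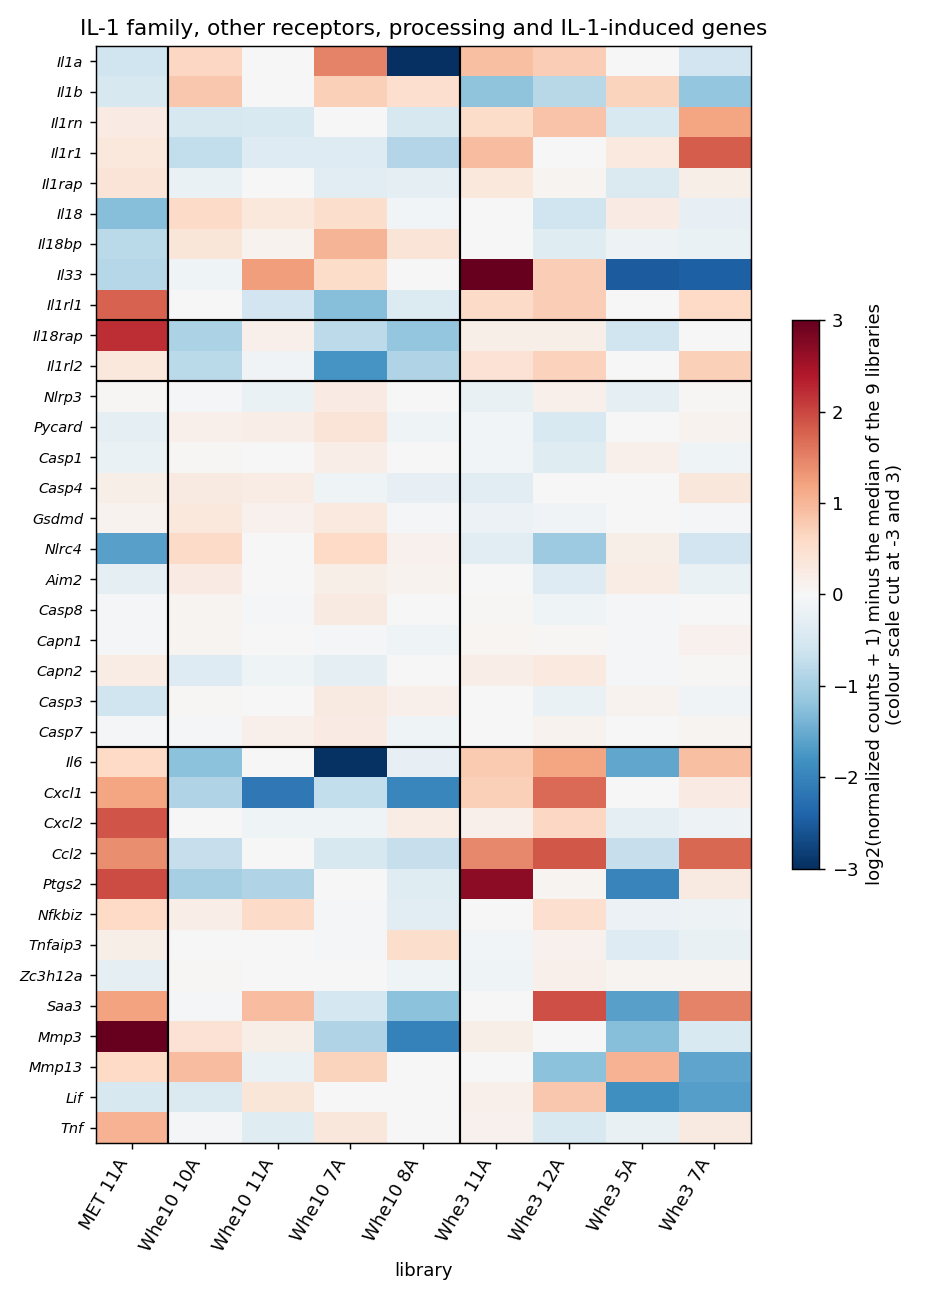
Log2(normalized counts + 1) minus the median of the 9 libraries, for the IL-1 family genes, other receptors, processing genes and IL-1-induced genes (rows, groups divided by black lines) in each library (columns, prefixes divided by black lines), with the colour scale cut at -3 and 3 and Sigirr, Cxcl5, Lcn2 and Csf3 left out. Il1rn and Ccl2 share high values in Whe3 11A, 12A and 7A and low values in Whe3 5A, and MET 11A is high for Il1rl1, Il18rap, Ptgs2 and Mmp3.

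Whether the genes varied with cell type markers or with each other was examined in the other 7 relations over the 9 clones, and none passed the adjustment. The macrophage score, the mean z-score of the 16 markers, gave r = 0.659 with Il18 (rho = 0.75, exact permutation adjusted p = 0.21 for r and 0.10 for rho) and r = -0.528 with Il1rn (rho = -0.417, adjusted p = 0.39 and 0.47, exact permutation). Without MET 11A, the library with the lowest Il18, the relation of Il18 was r = 0.835 (exact permutation adjusted p = 0.046), and centred within Whe10 and Whe3 it was 0.696 (adjusted p = 0.65). With the 2 clones farthest from the median score left out it was 0.534. The fibroblast score gave r = 0.427 with Il1r1 (rho = 0.483) and -0.351 with Il33 (rho = -0.4), and the former was -0.215 when centred within the prefixes. Il1a with Il1b gave r = -0.0930 (rho = 0.05), Il1b with Tnf -0.150 (rho = -0.0833) and Il1r1 with Il33 -0.223 (rho = -0.167). The adjusted exact permutation p of these 5 relations was 0.51 to 0.85 for r. Between the prefixes, 11 of 14 fibroblast markers had higher fitted values in Whe3 (median -0.69), the reverse of the macrophage markers, with summed macrophage levels of 754217 to 865668 in Whe10 and 584984 to 919012 in Whe3. None of these markers was called. The part of the macrophage and fibroblast content in the differences of Il18, Il18bp and Il1r1 was not tested.

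The genes whose pattern over the 9 clones was most like that of a member were found by Pearson's r of the log2 values among the 12300 genes averaging 50 normalized counts or more, as a description. For Il1rn these were Grhpr (0.939), Stambpl1 (0.936) and Il15ra (0.930), and for Il1r1 they were Ifi27 (0.944), Fgr (0.932) and Ube2r2 (0.932). For Il1rap they were Ptgs2os2 (0.986), Bmp1 (0.963) and Poldip2 (0.959). Ptgs2os2 is antisense to Ptgs2, and since strand use in counting is not stated its reads may not be separable from those of neighbouring transcripts. For Il18 they were Rsbn1 (0.979), Zfp787 (0.977) and Mmp27 (0.974), and for Il18bp Pag1 (0.983), Zcchc2 (0.980) and Rnf111 (0.979). Without MET 11A, 2 of the 3 genes remained among the closest 3 for Il18bp, 1 for Il1rap and 0 for Il1rn, Il1r1 and Il18.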

How the data were processed

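RNA-sequencing was performed by the authors on 9 WTg MPC clones, with stranded mRNA libraries (TruSeq). The submitters' processing notes name FastQC 0.11.9, STAR 2.7.10, RSEM 1.3.3 and GRCm38. The scaling is not given in the sources used here. The authors deposited log2 values, 1 per gene and library, with a lowest value of 2. Each value was taken back as 2 to its power minus 4, which gives normalized counts, and reads were recovered from the spacing of the low values. Of the nonzero values below 100 reads, 100% lay within 0.1 of a whole read in every library. All 18049 genes were used, and 18033 identifiers matched the reference names. The most similar pair of libraries had a chi-square per degree of freedom of 24.1 over its counts, so none was a repeat. The table also holds 6 columns of other samples, which were not used. Nothing states that the clones come from separate mice, so the p-values rest on the spread between these clones and not between mice. It is not known whether the clones of a prefix share a mouse, so prefix and animal cannot be told apart.

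Since the unit is log2, the difference between Whe10 and Whe3 (4 libraries each, MET left out) was tested on log2(normalized counts + 1) with limma, its eBayes step using a mean-variance trend. Genes averaging 1 normalized count or more entered, with Benjamini-Hochberg adjustment over all genes and calls at an adjusted p under 0.05. Folds on this scale understate the change of low genes. The limma fit and the permutation tests were tested on simulated data. The 8 relations were tested with exact permutation tests. Intervals of reads are exact Poisson intervals at 95%. Genes named are the 10 genes, the lists of other family genes, signalling, processing, IL-1-induced and marker genes, and the 3 genes most like each member that averages 50 normalized counts or more. Members and lists were chosen with earlier results of these data known. Alternatives were upper-quartile scaling, a pseudocount of 0.1, the deposited log2 values, no filter, a filter at 50, no trend, voom with TMM, MET kept in the fit as a further level, leaving out libraries and centring within prefixes. Scaling to library totals for differences and relations, and leaving Whe3 5A out of the relations, were chosen after seeing the data. Promoter sequences are from RefSeq (GRCm38.p6). No exonic lengths were used. Fits were run in R 4.3.3 (limma 3.58.1) and all else in Python 3.11.15 (pandas 2.3.3, scipy 1.17.1, numpy 2.4.6, matplotlib 3.10.9).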

Additional observations from a re-analysis of the deposited data

Results flagged for a closer look

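Of 53 genes examined over the 9 libraries, 10 had a library far from its nearest neighbour. In these, that distance divided by the whole range was above Dixon's 95% critical value for 9 samples. For normally distributed values and independent genes, chance gives about 1 in 20 genes, or 2.65, and neither condition was checked for these linear counts. The share over all genes was not computed, so the 10 are not read as an excess. Of the IL-1 family genes, Il1r1 was far higher in Whe3 7A (ratio 0.544), Il18bp in Whe10 7A (0.503), Il33 in Whe3 11A (0.802) and Il1rl1 in MET 11A (0.576). Among the other receptors, Il18rap was far higher in MET 11A (0.836), at 5.75 times the mean of the other libraries. Of the IL-1-induced genes, Cxcl2 (0.744), Mmp3 (0.942) and Tnf (0.597) were far higher in MET 11A, Mmp3 at 783 normalized counts against at most 53.4 elsewhere. Chuk, a kinase of the NF-kB pathway, was higher in Whe3 11A (0.519), and Casp8 in Whe10 7A (0.529). MET 11A accounted for 5 of the 10 genes and was also the shallowest library and the single one of its prefix, so the clone, the depth and the prefix cannot be told apart.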

How the results depend on the processing

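The levels of the 9 genes moved by less than 1 SD in all 117 alternatives. Leaving out 1 of 9 libraries cannot move a mean by 1 SD, and the scaling factors were small. That count was therefore fixed in advance and is no evidence of stability. Without Whe3 11A, the mean of Il33 went from 28.7 to 13.2 normalized counts. No filter gave 7 genes higher in Whe10 and 8 higher in Whe3, and limma without a trend gave 7 and 10, against 12 and 17 in the main fit. Leaving out each library in turn gave 2 to 149 and 7 to 93 genes, 0 to 2 of the 9 IL-1 family genes and 0 to 1 of the IL-1-induced genes, with every upper end reached without Whe3 5A, the library with the most acinar RNA. The lower ends for all genes were reached without Whe10 10A, where 2 and 7 were called. The smaller number of samples in these fits is part of their construction. With 1 library left out, the difference of Il1a ranged from -1.06 to 0.44, positive without Whe10 8A, and that of Il33 from -0.18 to 1.82, at -0.18 without Whe3 5A and -0.16 without Whe3 7A. Neither was called in any fit. The relation of Il1a with Il1b turned to 0.0263 without the 2 farthest clones and 0.0139 when centred, and that of the fibroblast score with Il1r1 to -0.215 when centred. The relation of Il1rn with Il1b kept its sign in all 7 alternatives (-0.879 to -0.759, adjusted p 0.029 to 0.65). It missed the threshold at -0.820 without the 2 farthest clones, at -0.759 when centred and at -0.858 without Whe3 5A. The macrophage score with Il18 passed at 0.835 without MET 11A. Other causes were not tested. Scaling mattered little, since the largest factor was 0.028 (upper quartile) or 0.049 (library total) on the log2 scale. No paired analysis was possible because the labels define 1 group only. Division by gene length was not run, since no exonic lengths were used. Il1a and Il33 were at or under 3 reads in 3 of 9 libraries each, and their values in those libraries are limited by depth. The coefficient of variation of Il33 over the 9 libraries was 166%, against 21.8% from read counting alone.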
